A study of Mus musculus with 11 samples.

Results

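The tricarboxylic acid (TCA) cycle enzymes examined here were 9 genes picked by symbol: Cs, Idh3a, Idh3b, Idh3g, Ogdh, Dlst, Suclg1, Fh1 and Mdh2. They were 9 of the 29955 gene symbols in the RNA-seq files, and all 9 were among the 13366 genes with a mean FPKM (an mRNA level scaled to exon length and sequencing depth) of at least 0.5 over the 11 samples, the filter used for every test. The samples were im-scWAT cells, 1 mouse preadipocyte line made from inguinal subcutaneous white fat by introducing large T antigen. A time course of 6 untransduced samples, 1 per condition, was taken at days 0, 4 and 8 of adipocyte differentiation with rosiglitazone (ROS, 0.5 μM, a PPARγ ligand that drives beige differentiation) or without it. Cells kept beyond day 0 received the same indomethacin, dexamethasone, IBMX, insulin and T3. The day 0 pair was collected before ROS was first given, and by the paper's methods ROS came in the same induction medium as these drugs. Comparisons with day 0 therefore also set cells given this medium against cells not yet given it. The other 5 samples, all at day 8 and labelled ROS plus, carried an shRNA against mouse Jmjd1a (sh-mJmjd1a) and a retroviral human JMJD1A under a viral LTR promoter. WT-hJMJD1A was measured in the pair WT A and WT B. Single samples carried S265A, in which alanine replaces the serine that is phosphorylated, S265D, in which aspartate replaces it, and S265D-H1120Y, which also lacks the catalytic histidine of the demethylase. The labels do not state that WT A and WT B came from separate transductions. The p-values of the transduced comparisons measure the spread between these 2 samples, which may be technical. Those of the day comparisons measure the spread between the samples with and without ROS of each day. Those of the ROS effect rest on the day 0 pair and on the change of that effect between days, and those of this change on the day 0 pair. In every limma test the spread of a gene was also moderated toward a trend fitted over all genes tested, so it is not that of the gene alone.

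The TCA cycle runs in the mitochondrial matrix, where it oxidises the acetyl group of acetyl-CoA to carbon dioxide and passes the electrons to the respiratory chain as NADH and FADH2. White adipocytes also draw on it for citrate, which leaves the mitochondrion to make fatty acids, whereas beige and brown adipocytes burn the reducing power as heat. Citrate synthase (Cs) condenses acetyl-CoA with oxaloacetate. The NAD-dependent isocitrate dehydrogenase is assembled from a catalytic subunit (Idh3a) and regulatory subunits (Idh3b, Idh3g). Ogdh and Dlst are the first and second components of the 2-oxoglutarate dehydrogenase complex, Suclg1 is the alpha subunit shared by both succinyl-CoA synthetases, Fh1 is fumarase and Mdh2 is the mitochondrial malate dehydrogenase that regenerates oxaloacetate.

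The 9 genes lay on 9 chromosomes of the mm9 build, so none was a neighbour of another. They were Cs at chr10:127774888-127799535, Idh3a at chr9:54434318-54452469, Idh3b at chr2:130105045-130110187, Idh3g at chrX:71024302-71032236, Ogdh at chr11:6191600-6259096, Dlst at chr12:86451783-86475041, Suclg1 at chr6:73198499-73226901, Fh1 at chr1:177531509-177555766 and Mdh2 at chr5:136254519-136266256. Each value was measured over the exons of 1 representative transcript, from 1282 bases for Mdh2 to 6614 bases for Ogdh. In the GENCODE annotation of that build, Idh3b overlapped Nop56 and Fh1 overlapped Kmo, both on the opposite strand, while Cs overlapped a small nucleolar RNA named U8 on the same strand. The values used here are for the sense strand, which does not set Cs apart from U8. Every member was well covered, with at least 0.307 Mb of mapped bases in the thinnest case, Fh1 in 1 sample.

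RefSeq promoter windows, from 250 bases before to 50 bases after the start of transcription on GRCm38.p6, were matched for 8 of the 9 members, all but Idh3a. The windows were searched on both strands for letters that fit factors known to act on mitochondrial genes, and a match describes the sequence only. CCGGAAG, a core bound by ETS factors such as GABPA, was in the windows of Idh3b, Idh3g and Dlst, against 9.93% of the 27025 genes with a window. TGACGTCA, the cyclic AMP response element, was in windows of Ogdh and Mdh2, against 2.03% of genes. AAGGTCA is the core bound by the ERR receptors and GCATGCGC a core of the NRF1 site. Among the members, each was in windows of Ogdh alone, against 5.38% and 3.05% of genes. The 27025 genes had 32851 windows, and a gene counted when any of its windows matched. Neither AAGGTCA nor GCATGCGC is in the Ogdh window at chr11:6291347-6291646, so those matches come from elsewhere among the Ogdh windows. The GC box GGGCGG was in windows of 5 members, Cs, Ogdh, Dlst, Fh1 and Mdh2, against 38.2% of genes. None of these motifs contains another. A window of each of 4 members is shown, chosen by motif. These windows hold the ETS core in 2 subunits of the same enzyme and the cyclic AMP response element in 2 enzymes of separate steps. They are at chr2:130284402-130284701 (minus strand) for Idh3b, chrX:73786848-73787147 (minus strand) for Idh3g, chr11:6291347-6291646 (plus strand) for Ogdh and chr5:135778399-135778698 (plus strand) for Mdh2. Capitals mark CCGGAAG or its complement CTTCCGG in the first pair and TGACGTCA in the second.
Idh3b promoter: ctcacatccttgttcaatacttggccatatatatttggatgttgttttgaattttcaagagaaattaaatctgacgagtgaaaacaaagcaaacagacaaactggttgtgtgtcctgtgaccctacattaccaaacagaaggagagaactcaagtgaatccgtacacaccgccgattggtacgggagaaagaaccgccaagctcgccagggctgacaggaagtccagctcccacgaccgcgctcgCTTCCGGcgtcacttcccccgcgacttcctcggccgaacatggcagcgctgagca
Idh3g promoter: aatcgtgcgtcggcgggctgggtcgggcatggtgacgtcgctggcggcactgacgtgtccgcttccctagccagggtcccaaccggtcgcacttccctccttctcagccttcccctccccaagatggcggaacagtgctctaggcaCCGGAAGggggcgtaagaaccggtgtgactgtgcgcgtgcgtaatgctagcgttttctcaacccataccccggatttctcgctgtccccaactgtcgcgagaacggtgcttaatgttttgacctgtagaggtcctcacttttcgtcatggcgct
Ogdh promoter: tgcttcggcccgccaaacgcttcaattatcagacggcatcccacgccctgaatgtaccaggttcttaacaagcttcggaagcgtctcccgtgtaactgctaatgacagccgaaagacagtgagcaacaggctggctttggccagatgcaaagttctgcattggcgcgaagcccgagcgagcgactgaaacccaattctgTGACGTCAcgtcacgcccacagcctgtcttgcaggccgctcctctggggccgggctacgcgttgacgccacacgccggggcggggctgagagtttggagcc
Mdh2 promoter: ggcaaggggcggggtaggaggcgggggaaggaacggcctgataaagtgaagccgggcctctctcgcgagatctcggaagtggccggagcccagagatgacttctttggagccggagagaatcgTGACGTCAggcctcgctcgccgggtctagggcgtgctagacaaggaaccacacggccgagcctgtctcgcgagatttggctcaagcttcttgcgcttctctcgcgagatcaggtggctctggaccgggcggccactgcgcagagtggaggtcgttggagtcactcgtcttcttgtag
The match began 5 bases before the start of transcription in Idh3b, 104 bases before it in Idh3g, 51 before it in Ogdh and 127 before it in Mdh2.

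The sequenced depth was 3.10 to 5.29 Gb of mapped bases per sample. Mouse Kdm3a, the gene that encodes JMJD1A and the target of the shRNA, had an FPKM of 20.4 for WT A and 17.9 for WT B, with 13.0 in S265A, 23.0 in S265D and 28.5 in S265D-H1120Y. In the 6 untransduced samples it was 15.1 to 23.2, so S265A was below that range, S265D-H1120Y above it and the others within it, and whether reads of the human transgene were counted there was not tested. The summed FPKM of 12 adipocyte markers was 296 and 298 at day 0 and 12969 to 39223 in the other 9 samples. The sum of 8 preadipocyte or fibroblast markers was 1235 and 1314 at day 0 and 259 to 992 later, and that of 6 cycling markers was 473 and 528 at day 0 and 101 to 337 later. Not every preadipocyte marker was lower after day 0. Pdgfra was 11.9 and 11.8 FPKM at day 0 and 31.8 and 50.2 at day 4. Ly6a was 424 and 484 at day 0, 495 at day 8 without ROS and 496 in WT B. Of the macrophage markers, Ptprc and Adgre1 (listed under its older symbol Emr1) were at 0 in all 11 samples, and the sum of 0.541 to 21.7 over the 4 markers was mostly Cd68. The 4 endothelial markers summed to 0.353 to 4.00. WT A and WT B stood apart from each other, with 40.2% of the 13366 genes at least 1.5-fold apart in either direction, against 5.12% between the 2 day 0 samples. Results that use the WT samples are therefore also given against each one alone.

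Mdh2 and Cs were the most abundant of the 9 mRNAs in every sample, and FPKM is corrected for exon length, so levels can be compared between genes. Mdh2 ranked first in 7 samples, namely the 6 of the time course and WT A, and Cs ranked first in WT B and the 3 mutants. Ogdh ranked last in all 11 samples. The ratio of Mdh2 over Cs in FPKM was 2.10 and 2.15 at day 0, 1.35 and 1.37 at day 4, and 1.28 with ROS and 1.40 without ROS at day 8. WT A had a ratio of 1.22, WT B one of 0.842, and the mutants had 0.935 (S265A), 0.930 (S265D) and 0.939 (S265D-H1120Y). The order of this pair therefore depended on the sample, and the day 4 and day 8 ranges of the ratio overlapped. The 9 FPKM values summed to 698 and 740 at day 0, 2067 to 2636 at day 4 and 1924 to 3127 at day 8 of the time course. Among the transduced samples WT A had the highest sum, 3470, and the others had 1661 (WT B), 1954 (S265A), 2108 (S265D) and 1651 (S265D-H1120Y).

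**Figure D1:**
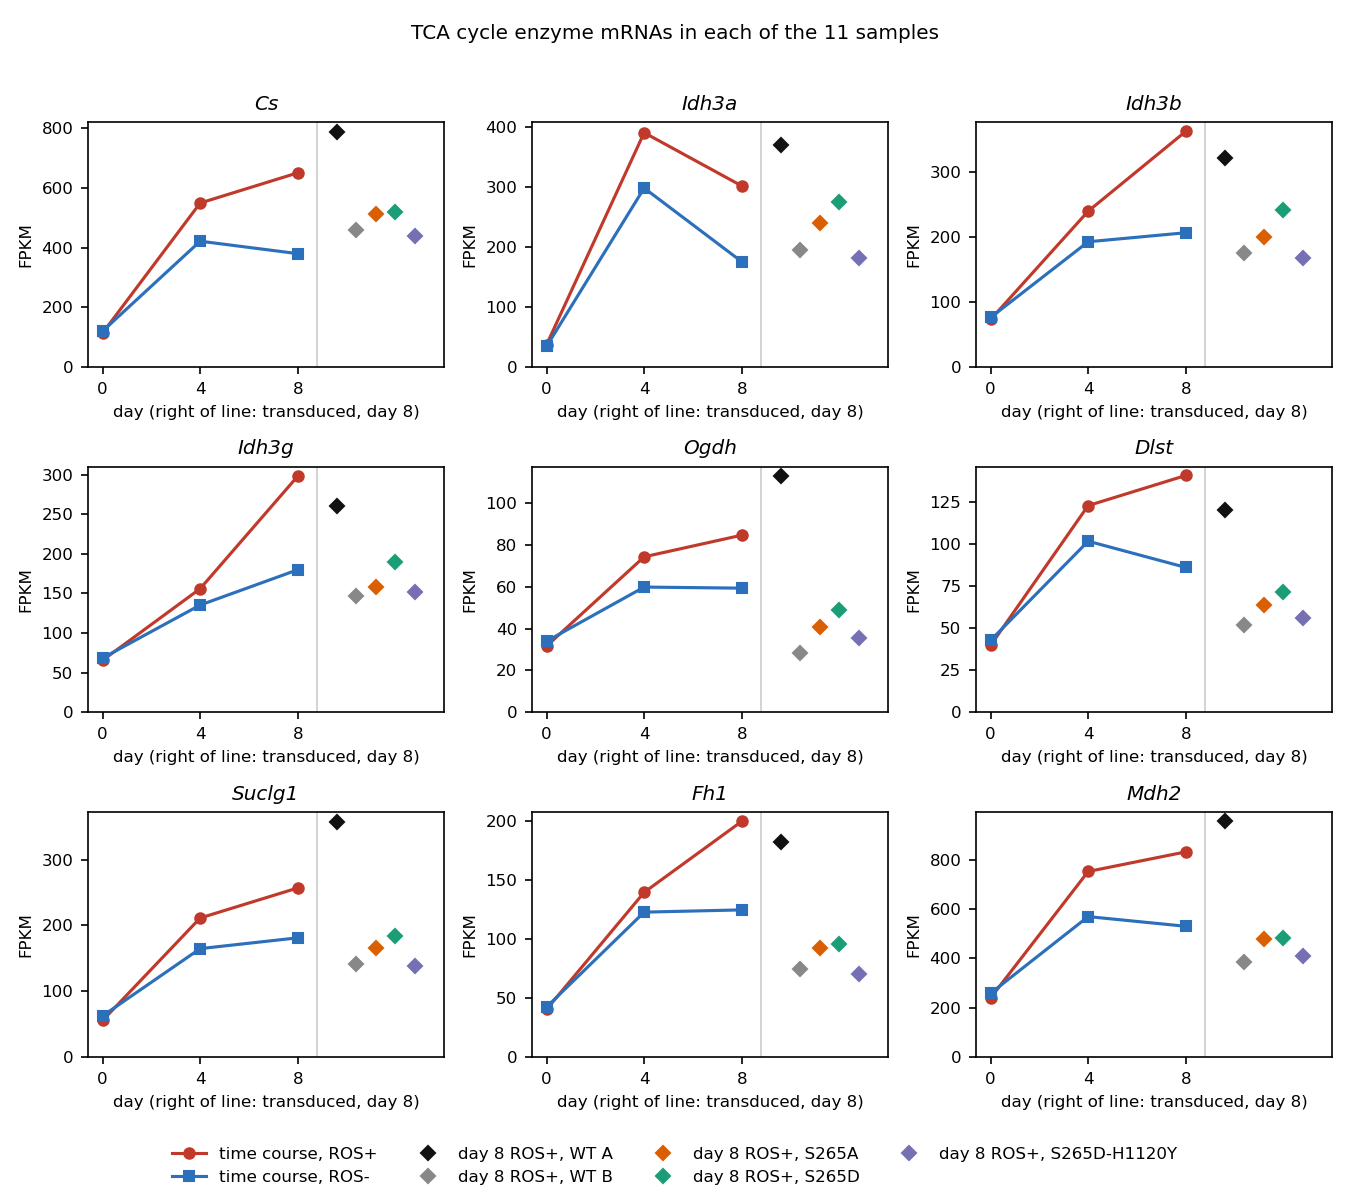
FPKM of each TCA cycle gene in each of the 11 samples. Lines join the time course samples by day (x axis) with ROS (circles) and without ROS (squares), diamonds right of the vertical line are the 5 transduced samples at day 8, and each point is 1 sample. All 9 genes start low at day 0, and WT A lies above the other transduced samples in every panel.

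Every one of the 9 genes rose between day 0 and day 4. Idh3a rose most, by 9.44-fold (3.24 ± 0.28 on the log2 scale, SE, adjusted p = 0.000669), and Ogdh least, by 2.03-fold (1.02 ± 0.20, adjusted p = 0.0106). The median of the 9 log2 differences was 1.52, against 0.03 over all genes tested. These tests used limma on log2(FPKM + 0.1) over the 6 time course samples, with the samples with and without ROS as the 2 cultures of each day, and Benjamini-Hochberg adjustment over the 13366 genes. At an adjusted p of 0.05, 24% of all genes tested were called higher at day 4. At day 8 against day 0, 9 of 9 were again higher, by 1.11 to 2.67 on the log2 scale with adjusted p-values of 0.00107 to 0.0063, where 27.9% of all genes were called higher. Both comparisons use the same day 0 samples. With 1 culture per condition and 2 per day, the day 4 calls fell to 5, 4 or 5 genes when the day 0 ROS plus, day 4 ROS plus or day 0 ROS minus sample was left out, and to 8 without the day 4 ROS minus sample (Idh3g was lost), with 9 of 9 differences still positive and 16.4% to 22% of all genes called in either direction. At day 8, Mdh2 missed the threshold without the day 0 ROS plus sample (adjusted p = 0.051). In RNA from whole cultures, fewer cells of a type and less RNA per cell cannot be told apart, and the part of the adipocyte markers, which went from lower to higher levels over the same days, was not tested.

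Cs, which opens the cycle, had an FPKM of 114 and 120 at day 0 (117 ± 4.42, SD, n = 2), 550 with ROS and 422 without it at day 4, and 651 and 380 at day 8. The day 0 values were apart from all later ones. The share of all genes with such a gap was not counted, here or for the genes below. The rise to day 4 was 4.10-fold (2.04 ± 0.28 on the log2 scale, adjusted p = 0.00312) and the rise to day 8 was 4.24-fold (2.08 ± 0.28, adjusted p = 0.00234).

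The isocitrate dehydrogenase subunits were highest on different days. Idh3a had 37.5 and 34.6 FPKM at day 0, 390 with ROS and 298 without it at day 4, and 302 and 176 at day 8, so in both ROS states its highest level of the time course was at day 4. Idh3b had 73.2 and 76.3 at day 0, 240 and 193 at day 4, and 362 and 207 at day 8. Idh3g had 65.5 and 68.3 at day 0, 156 and 135 at day 4, and 298 and 180 at day 8, so it was highest at day 8 in both ROS states. Between days 4 and 8 the difference was -0.57 ± 0.28 for Idh3a (adjusted p = 0.253) and 0.67 ± 0.24 for Idh3g (adjusted p = 0.163), and neither passed the threshold. With ROS added as a term to the same limma fit, both passed, Idh3a lower with an adjusted p of 0.0455 and Idh3g higher with an adjusted p of 0.0395, in a fit that called 13.9% of all genes. Without the day 8 ROS plus sample Idh3a was called lower (adjusted p = 0.0228, with 15% of all genes called), and without the day 8 ROS minus sample Idh3b, Idh3g and Fh1 were called higher (adjusted p = 0.00654 to 0.0184, with 29% of all genes called). With all 6 samples no other member passed, with or without the ROS term, and 0.531% of all genes were called between days 4 and 8 in the fit without the term.

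The ratio of the catalytic to a regulatory subunit changed accordingly. Idh3a over Idh3b, in FPKM, was 0.512 and 0.454 at day 0, 1.63 and 1.55 at day 4, and 0.833 and 0.850 at day 8. Idh3a over Idh3g was 0.572 and 0.507 at day 0, 2.50 and 2.20 at day 4, and 1.01 and 0.976 at day 8. The 3 days did not overlap for either ratio, whereas the samples with and without ROS were close to each other on each day. How many other pairs of genes would separate in this way was not counted. An exact two-sided permutation test of 2 against 2 samples cannot go below p = 0.333, which is the value obtained between days 0 and 4 for both ratios. In the transduced samples Idh3a over Idh3b was 1.15 for WT A and 1.12 for WT B, and it was 1.20 for S265A, 1.13 for S265D and 1.08 for S265D-H1120Y, a narrow range between the day 4 and day 8 values of the time course. Idh3g over Idh3b was steadier, at 0.651 to 0.900 over all 11 samples.

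**Figure D2:**
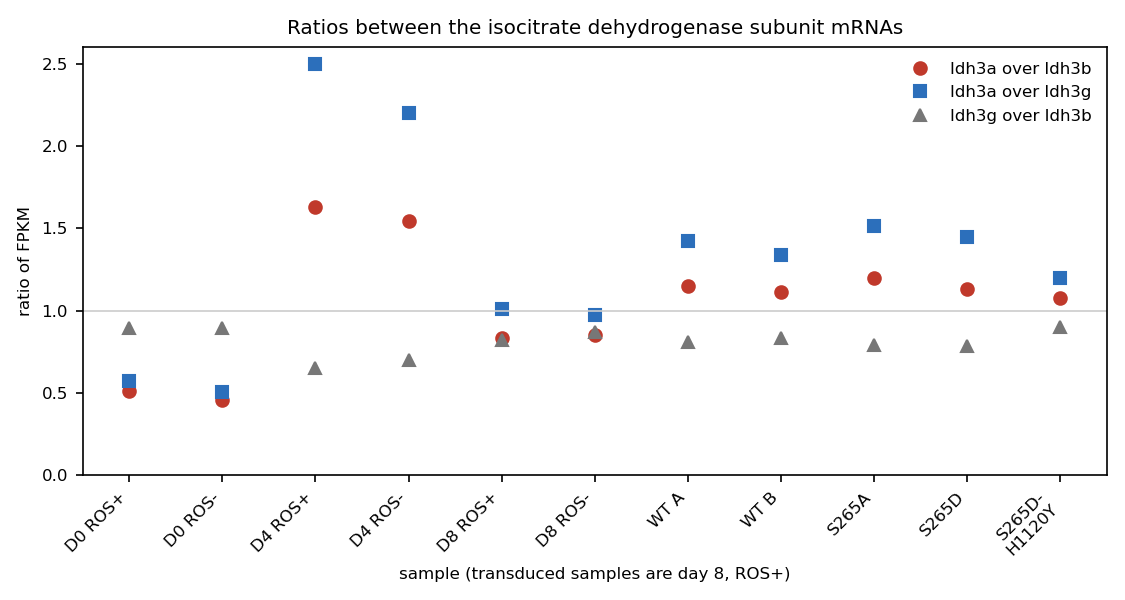
Ratio of FPKM between the mRNAs of the isocitrate dehydrogenase subunits (y axis) in each of the 11 samples (x axis), 1 point per sample and ratio. Both ratios with Idh3a peak in the 2 day 4 samples, at 1.55 to 1.63 over Idh3b and 2.20 to 2.50 over Idh3g, while Idh3g over Idh3b stays between 0.651 and 0.900.

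The 2-oxoglutarate dehydrogenase components were the least abundant of the set in every sample of days 4 and 8, whereas at day 0 Idh3a was below Dlst. Ogdh, which decarboxylates 2-oxoglutarate, had 31.6 and 34.0 FPKM at day 0, 74.4 with ROS and 59.9 without it at day 4, and 84.7 and 59.4 at day 8. Dlst, which passes the succinyl group to coenzyme A, had 39.7 and 42.6 at day 0, 123 and 102 at day 4, and 141 and 86.0 at day 8. Dlst rose by 2.71-fold to day 4 (1.44 ± 0.24 on the log2 scale, adjusted p = 0.0064). For both genes the day 0 values were below the other 4 time course samples. The ratio of Ogdh over Dlst was 0.797 in both day 0 samples and 0.589 to 0.690 at days 4 and 8 of the time course. In the transduced samples it was 0.943 in WT A, above both day 0 samples, 0.548 in WT B and 0.633 to 0.687 in the mutants.

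Suclg1, Fh1 and Mdh2 act in the later steps of the cycle. Suclg1 had 55.6 and 62.6 FPKM at day 0, 211 and 165 at day 4, and 257 and 181 at day 8. Fh1 had 40.4 and 42.4 at day 0, 139 and 123 at day 4, and 199 and 124 at day 8. Mdh2 had 240.1 and 259 at day 0, 753 and 569.9 at day 4, and 832 and 531 at day 8. In each of the 3 genes the day 0 pair lay below every later time course sample. The share of all genes that did so was not counted, while 24% were called higher at day 4. The day 4 rise was 3.16-fold for Suclg1 (adjusted p = 0.00263), 3.15-fold for Fh1 (adjusted p = 0.00324) and 2.63-fold for Mdh2 (adjusted p = 0.00839), all by limma.

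**Figure D3:**
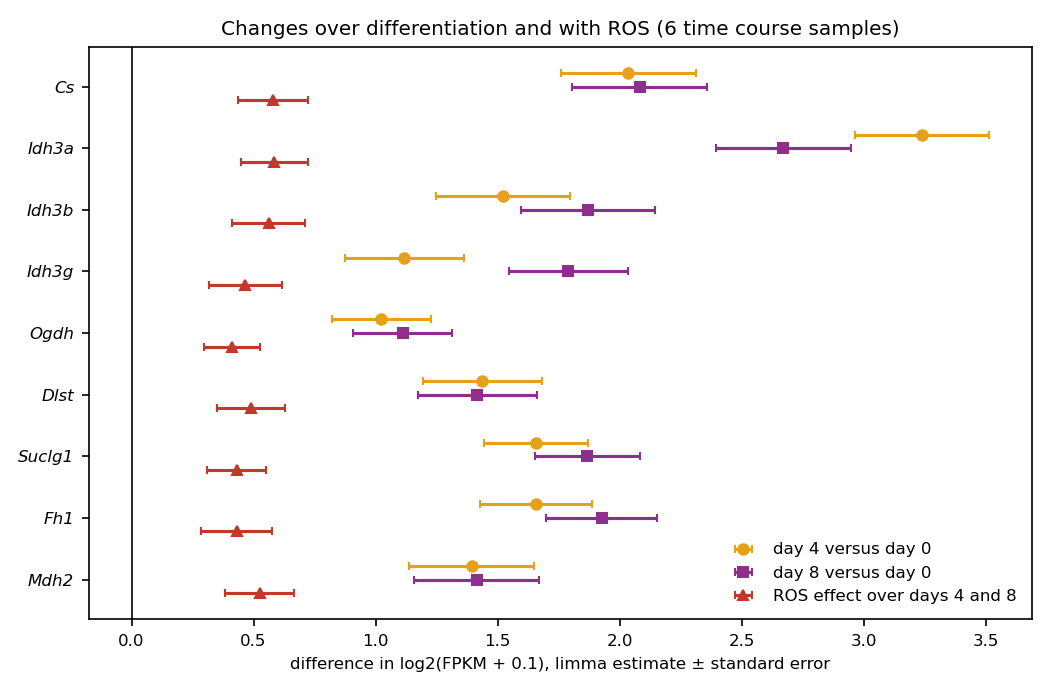
Difference in log2(FPKM + 0.1) (x axis, limma estimate ± standard error) for each TCA cycle gene (y axis), for day 4 against day 0, day 8 against day 0, and ROS plus against ROS minus over days 4 and 8. The differences over days range from 1.02 to 3.24 and those with ROS from 0.41 to 0.58.

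The second question of the time course is how beige (ROS plus) and white (ROS minus) cultures differed. All 9 genes had a higher FPKM with ROS at day 4 and at day 8, by 1.14 to 1.32 times at day 4 and 1.42 to 1.75 times at day 8, but no difference passed the test. At day 8, 7 of the 9 were at least 1.5-fold higher with ROS, where 6.68% of all genes were. The 2 below that fold were Ogdh (1.43 times) and Suclg1 (1.42 times), and the highest was Idh3b (1.75 times). At day 4, 0 of 9 reached 1.5-fold, where 1.8% of all genes were that much higher. In the day 0 pair, before ROS was given, 0 of 9 were 1.5-fold apart in either direction, and the ratios were 0.888 to 1.08. These pairs are 1 sample against 1 and have no replicate check of their own.

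In limma, the ROS difference over days 4 and 8 was 0.41 (Ogdh) to 0.58 (Idh3a) on the log2 scale, with a median of 0.49 against -0.13 over all genes. The adjusted p-values of the 9 were 0.121 to 0.172, and 0 of 9 were called. The share called was 0% of all genes, although 2886 genes and all 9 members had an unadjusted p under 0.05. The difference between the ROS effects at day 8 and at day 4 was positive in 9 of 9 genes, from 0.15 for Suclg1 to 0.52 for Idh3g. The median of the 9 was 0.39, against -0.13 over all genes. The adjusted p-values of this difference were 0.265 to 0.736 on 1 residual degree of freedom. By limma, 3 of 9 members and 2300 of the 13366 genes tested had an unadjusted p under 0.05, and 0% of all genes were called. At day 8 the adipocyte markers summed to 39223 with ROS and 12969 without it (7822 and 5337 when Fabp4 was left out), the preadipocyte markers to 259 and 992, and the 8 beige or brown markers to 421 and 95.7. The adipocyte and beige or brown sums were higher with ROS, as the TCA cycle genes were, and the preadipocyte sum was lower. Of the 12 adipocyte markers, 8 were lower without ROS, while Pparg, Cfd, Retn and Dgat2 were higher without it. The part of these markers in the ROS difference was not tested.

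The remaining comparisons ask whether the phosphorylated serine and the catalytic activity of JMJD1A bear on the cultures at day 8. For each of the 9 genes, the WT samples were further apart than the ROS plus and ROS minus samples of day 8. WT A was higher than WT B for 9 of 9, by 1.72 times for Cs to 3.97 times for Ogdh, and for 5 of the 9 by at least 2-fold. All 9 were at least 1.5-fold lower in WT B than in WT A, where 16.9% of all genes were. Ogdh was at 113 FPKM in WT A and 28.5 in WT B, the latter below both day 0 samples, and 1.79% of genes tested had a difference as low or lower. The beige or brown markers summed to 402 in WT A and 116 in WT B, the adipocyte markers to 17435 and 30882 and the preadipocyte markers to 414 and 886. Fabp4 carried the adipocyte sum, and 9 of the 12 adipocyte markers were lower in WT B, with sums of 5042 in WT A and 3980 in WT B when Fabp4 was left out. The part of these in the WT difference was not tested.

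For the WT pair and the mutants in the order WT A, WT B, S265A, S265D and S265D-H1120Y, Cs had 788, 459, 513, 519 and 438 FPKM. Mdh2 had 958, 387, 479, 483 and 412. In both, the mutants were close to WT B and far from WT A. Idh3a had 370.4, 196, 240.4, 274 and 181. Idh3b had 322, 175, 201, 242 and 168. Idh3g had 260.0, 146, 158, 189.6 and 151. Among the mutants, S265D was the highest for each isocitrate dehydrogenase subunit. Ogdh had 113, 28.5, 40.7, 49.1 and 35.5. Dlst had 120.0, 52.0, 63.9, 71.4 and 56.0. For both components of the 2-oxoglutarate dehydrogenase complex WT B was the lowest. Suclg1 had 357, 142, 165, 183 and 139. Fh1 had 182, 74.8, 92.5, 95.8 and 70.0, and here and in Suclg1 the lowest was S265D-H1120Y. In all 9 genes WT A was the highest of the 5, and the lowest was WT B in 4 genes and S265D-H1120Y in 5.

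S265A lay between the WT samples in all 9 genes, at 0.360 to 0.651 times WT A and 1.08 to 1.43 times WT B. The share of all genes between the WT samples was not counted, so this order cannot be called particular to the 9. Against the mean of the log2 values of WT A and WT B, the S265A differences were -0.48 (Ogdh) to -0.16 (Idh3a), with standard errors of 0.53 to 0.85. No gene was 1.5-fold apart from that mean, where 11.2% of all genes were, and 0 of 9 and 0% of all genes were called (51 genes had an unadjusted p under 0.05, by limma). The direction followed the control. Against WT A alone 9 of 9 were at least 1.5-fold lower, where 28.6% of all genes were that far apart in either direction, and without WT A all 9 differences turned positive, from 0.11 for Idh3g to 0.51 for Ogdh.

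S265D also lay between WT A and WT B in 9 of 9 genes, at 0.434 to 0.752 times WT A and 1.13 to 1.72 times WT B. Here too the share of all genes between them was not counted. Against the WT mean its differences were -0.33 (Mdh2) to 0.03 (Idh3b), none of the 9 was 1.5-fold apart where 10.1% of all genes were, and 0 of 9 and 0% of all genes were called (32 with an unadjusted p under 0.05, by limma). With WT B left out, Ogdh alone was called, at -1.20 (adjusted p = 0.0481, limma over all samples with the day 0 pair for the spread, with 4.35% of all genes called). With WT A left out, Ogdh was 0.78 higher in S265D. S265D was above S265A in 9 of 9 genes, by 1.01 times for Mdh2 to 1.21 times for Ogdh, which is less than the gap between the WT samples in each gene. This pair of single samples was not tested, and the share of all genes in the same order was not counted.

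S265D-H1120Y was below S265D in 9 of 9 genes, by -0.60 for Idh3a to -0.23 for Mdh2 on the log2 scale. The standard errors were 0.61 to 0.98 and rest on the WT pair, moderated over all genes. Idh3a, at 0.660 times S265D, was the only member at least 1.5-fold lower, where 12.5% of all genes were. The median of the 9 was -0.40, against -0.05 over all genes. None of the 9 and 0% of all genes were called (145 with an unadjusted p under 0.05, by limma). Against WT B, S265D-H1120Y was 0.924 to 1.24 times as high and above it in 4 of 9 genes. The beige or brown markers summed to 345 in S265D and 175 in S265D-H1120Y and the adipocyte markers to 26731 and 16802 (3859 and 2674 when Fabp4 was left out), and their part in the difference was not tested.

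**Figure D4:**
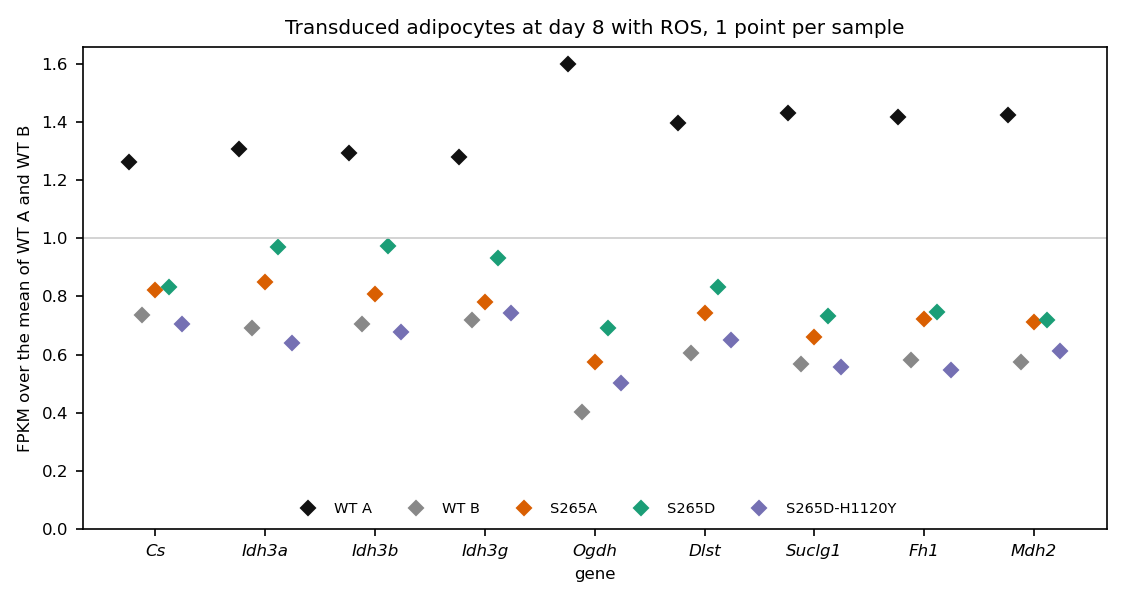
FPKM of each TCA cycle gene (x axis) in each transduced day 8 sample, divided by the mean FPKM of WT A and WT B (y axis, 1 point per sample). WT A lies above the other 4 samples for every gene, S265A and S265D lie between both WT samples, and the gap within the WT pair is widest for Ogdh.

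Other genes of the cycle and its borders were taken as a list of 14. At day 4, 13 of the 14 were called higher than at day 0 and 0 lower, with a median log2 difference of 1.53, and at day 8 13 were higher and 1 lower. The exception was Acly, which splits citrate in the cytosol, at -0.33 ± 0.13 at day 4 (adjusted p = 0.0803) and -0.67 ± 0.13 at day 8 (adjusted p = 0.00711, limma). Idh2, the NADP-dependent enzyme of the same step as Idh3, rose by 0.67 ± 0.12 at day 4 (adjusted p = 0.00725), where the 9 members had 1.02 to 3.24. Dld, the third component of the 2-oxoglutarate dehydrogenase complex, rose by 1.98 ± 0.19 (adjusted p = 0.00108).

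Sucla2, a partner subunit of Suclg1, rose by 1.40 ± 0.27 at day 4 (adjusted p = 0.01). Sdha and Sdhb, subunits of the succinate dehydrogenase that is also respiratory complex II, rose by 1.32 ± 0.22 and 1.23 ± 0.18 at day 4 and by 1.46 ± 0.22 and 1.76 ± 0.18 at day 8, with adjusted p-values of 0.00107 to 0.00631. With ROS over days 4 and 8, 13 of the 14 differences were positive and 0 were called. All 14 were negative in S265A against the WT mean and 0 were called. Of 11 genes of the pyruvate dehydrogenase complex with its kinases and phosphatases, which together set the supply of acetyl-CoA, 6 were called higher at day 4 and 0 lower, and 6 higher and 1 lower (Pdk3) at day 8. Of 84 nuclear-encoded respiratory genes past the filter, 66 were called higher at day 4 and 78 at day 8, with 0 lower at either time.

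Of 7 regulators, 4 were called higher at both days and 0 lower. Ppargc1a, the coactivator of mitochondrial biogenesis, was at 0.132 and 0.0828 FPKM at day 0, 2.18 and 2.16 at day 4, and 5.09 with ROS and 3.19 without it at day 8. Ppargc1b, a related coactivator, was at 0.0643 and 0.0351 at day 0 and 8.65 to 10.3 at day 4. Esrra, which encodes the receptor ERRα, was at 7.27 and 7.40 at day 0, 26.9 and 22.2 at day 4, and 46.5 and 30.4 at day 8. These genes were low at day 0 and higher in every later sample. Tfam, which packages and transcribes mitochondrial DNA, was 8.68 to 9.39 at day 0 and 15.9 to 16.3 at day 4 (0.83 ± 0.14, adjusted p = 0.00581). Nrf1 (-0.01 ± 0.13, adjusted p = 0.977) and Gabpa (0.30 ± 0.20, adjusted p = 0.274), the factors behind the NRF1 and one of the ETS motifs, did not pass the test at day 4. In the transduced samples Esrra was 60.6 for WT A and 21.0 for WT B, with 28.9 in S265A, 37.3 in S265D and 26.3 in S265D-H1120Y. Like the 9 members, Esrra was highest in WT A, and it was lowest in WT B, as were 4 of the 9.

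The genes most like the TCA cycle set were sought among 8905 genes with a mean FPKM of at least 5, outside the lists above, by Pearson's r between their log2 values and the mean centred log2 value of the 9 members. These r are descriptions over 11 samples that share 1 cell line, and the low day 0 pair weighs in all of them. The 10 highest were Rtn4ip1 (0.992), Grpel1 (0.990), Foxred1 (0.984), Uqcc (0.984), Ppif (0.984), Prdx3 (0.983), Fam195a (0.983), Bola3 (0.982), Chchd2 (0.981) and 1300001I01Rik (0.980). Without the day 0 pair, r over the other 9 samples was 0.932 to 0.984 for these genes. Rtn4ip1, the most alike, had 1.56 and 1.74 FPKM at day 0, 10.8 and 8.53 at day 4, 13.6 and 9.02 at day 8, and 14.8 in WT A against 5.97 in WT B. Prdx3, the mitochondrial peroxiredoxin, had 45.6 and 43.7 at day 0, 240.1 and 204 at day 4, and 237 and 158 at day 8. Within the related list, Sdha (0.994) and Mdh1 (0.991), the cytosolic malate dehydrogenase, were as close, and Acly had an r of -0.01. Without the day 0 pair, r was 0.978 for Sdha, 0.966 for Mdh1 and 0.512 for Acly.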

How the data were processed

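RNA-seq of 11 im-scWAT samples was used. The authors aligned reads to UCSC transcripts and mm9 and deposited strand-specific FPKM per transcript and sample. The deposited files also give the log10 and the log2 of the FPKM, and mapped bases as a coverage signal, which are not whole reads, so no count model was used. Depth was 3.10 to 5.29 Gb per sample.

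Each symbol was represented by its flagged sense transcript. Differences were tested two-sided in limma 3.58.1 (R 4.3.3, eBayes with trend) on log2(FPKM + 0.1), which understates changes of low genes, with Benjamini-Hochberg adjustment at 0.05. Residual degrees of freedom were 3 for days, 2 for ROS and 1 for the change of the ROS effect and the transduced samples. After moderation the median total was 5.985 for days, 6.28 for ROS, 2.89 for its change and 5.33 for the transduced samples. Scripts were tested on simulated data (Python 3.11.15, numpy 2.4.6, pandas 2.3.3, scipy 1.17.1, matplotlib 3.10.9). Promoters are from RefSeq, gene overlaps from GENCODE.

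The labels and the study differ on when ROS was removed before day 8, so samples were grouped by labelled ROS. The members, lists and rule for named genes (the members, 6 related genes of which 1 is not reported here, 7 regulators and the 10 most similar genes) were chosen with earlier results of these data known, and Acly, Pdk3 and Mdh1 after their values were seen. Alternatives changed the pseudocount (1, 0.01), filter, transcript, scaling, trend, fit, fold (2) and samples.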

Additional observations from a re-analysis of the deposited data

Results flagged for a closer look

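Antisense bases over the 9 TCA cycle genes were not used in any comparison. They made up 0.270% of all bases mapped to the 9 representative transcripts over the 11 samples, with 0.212% in the lowest sample and 0.391% in the highest. This signal is above 0 in every sample, and there was no control sample without it. No group of samples had the 4 or more members needed to look for a single sample far from the others, and no ROS effect of a member was called different between days 4 and 8.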

How the results depend on the processing

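The rise of all 9 genes from day 0 to days 4 and 8 kept its direction under every alternative, 117 of 117 values at each day. The number of members called at day 4 versus day 0 was 4 to 9 when 1 sample was left out and 8 without the filter, and at day 8 the median log2 difference was 1.47 to 2.15 over the left-out samples. At day 8 versus day 4, 0 to 3 members were called when 1 sample was left out and 2 with a ROS term, and the median was -0.17 to 0.43. The differences of single genes there turned, at -0.34 to 0.43 for Cs, -0.057 to 0.75 for Idh3b, -0.17 to 0.34 for Ogdh, -0.38 to 0.33 for Dlst, -0.043 to 0.46 for Suclg1, -0.070 to 0.61 for Fh1, -0.30 to 0.35 for Mdh2, and Dlst was at 0.015 after rescaling. The cause was not tested. The median ROS effect was 0.31 to 0.71, the values of day 4 and day 8 alone, and the median of its change between days was 0.53 after rescaling.

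When WT A or WT B was left out, the S265A differences were -0.62 to 0.16 for Cs, -0.62 to 0.30 for Idh3a, -0.68 to 0.19 for Idh3b, -0.71 to 0.11 for Idh3g, -1.47 to 0.51 for Ogdh, -0.91 to 0.30 for Dlst, -1.11 to 0.22 for Suclg1, -0.98 to 0.31 for Fh1, -0.999 to 0.31 for Mdh2. The S265D differences were -0.60 to 0.18 for Cs, -0.43 to 0.49 for Idh3a, -0.41 to 0.46 for Idh3b, -0.46 to 0.37 for Idh3g, -1.20 to 0.78 for Ogdh, -0.75 to 0.46 for Dlst, -0.96 to 0.37 for Suclg1, -0.92 to 0.36 for Fh1, -0.99 to 0.32 for Mdh2, with 0 to 1 members called. At 2-fold, 0 members differed with ROS at day 8 (12% of all genes did), 5 between WT B and WT A (18.5%) and 0 between S265D-H1120Y and S265D (6.99%), where rescaling also gave 0 at 1.5-fold (19.8%). Against WT A alone, 9 members were 1.5-fold apart in S265A (28.6% of all genes) and 6 in S265D (30.1%), and against WT B alone 1 was in S265D (11%).

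Over all genes, leaving out 1 sample moved the 5872 calls at day 4 versus day 0 to between 2186 and 8104, the 7179 at day 8 versus day 0 to between 3507 and 8751, and the 71 at day 8 versus day 4 to between 0 and 3874. For the last of these, a ROS term gave 1853 and no filter 25. Rescaling gave 107 calls for the ROS effect, no filter 1464 for its change between days, and leaving out WT B 582 for S265D, against 0 in each as reported. No paired analysis was possible by replicate number because the labels give none that groups share, and the fit with a ROS term is the nearest to a comparison of days within ROS state. Each condition other than WT had 1 sample.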
